A study of Brachypodium distachyon with 8 samples.

Results

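The 968 loci described here are the 3' UTRs of Brachypodium distachyon transcripts at which small RNA reads of 21 nt were the commonest length. A 3' UTR is the untranslated end of a transcript, and a locus is 1 transcript identifier. A locus was taken where its reads, pooled over 8 leaf libraries, numbered 40 or more, where the class of 20 to 23 nt held the largest share of them, and where 21 nt was the commonest single length. The 100 identifiers with most reads were left out. The 968 identifiers came from 674 genes, and they made up 5.35% of the 18091 identifiers that had 40 or more reads and were outside the 100 most abundant. The files list 30815 identifiers in all. The pooled lengths chose the loci, so the lengths and the 21 nt shares pooled over libraries are a description and not a finding.

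The study profiled small RNAs in leaves of Bd21, a diploid inbred line of this model grass, to compare stressed with unstressed plants. There was 1 library per condition, from plants cooled to 4 °C for 24 h or 6 h, heated to 42 °C by immersion in water for 3 h or 1 h (water heat), heated to 42 °C in air for 3 h or 1 h (air heat), kept for 48 h after the soil was soaked with 300 mM NaCl, or left unstressed. All plants were Bd21 grown at 22 °C, and the labels name no mutation or transgene. The labels name a pair of Illumina small RNA kits without tying either to a library, so kit and condition cannot be told apart.

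The deposited values are counts of reads per 3' UTR and read length, from 15 to 41 nt. Libraries held 1730029 to 4622303 such reads. The 968 loci held 1.39% to 3.51% of the reads of the 7 stressed libraries and 0.569% of the reads of the unstressed library, which stood apart from the rest and was scaled very differently by the methods tried. Every comparison is between 2 libraries, its interval covers counting error only, and no p-value can be given. In leaf tissue as a whole, fewer cells of a type and less RNA per cell cannot be told apart.

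In plants, small RNAs are cut from double-stranded RNA by Dicer-like enzymes, whose roles are best known from Arabidopsis. Reads of 21 nt include most microRNAs, which DCL1 makes, and trans-acting and other phased small interfering RNAs, which DCL4 makes; both are typically loaded onto ARGONAUTE1 and direct the cleavage or repression of messenger RNAs. Reads of 24 nt are mainly the small interfering RNAs that DCL3 makes and that guide DNA methylation at transposons and repeats. The identifiers of the 674 genes were looked up among 31335 RefSeq genes (assembly Brachypodium_distachyon_v3.0) and 0 were found, so no gene names, functions, positions or sequences are given, and no locus was matched to a microRNA.

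The 968 loci mixed lengths rather than holding 21 nt reads alone. Reads of 21 nt made up 11.8% to 93.0% of a locus's reads, with a median of 43.2% and quartiles of 29.98% and 53.4%. Reads of 24 nt made up 0% to 45.0%, with a median of 16.7%. In 316 loci 21 nt reads were 50% or more of all reads, and in 21 loci they were 80% or more. Behind 21 nt, the next commonest length was 24 nt in 719 loci (74.3%). It was 15 to 19 nt in 153 loci, 20 nt in 42, 22 nt in 35 and 23 nt in 17. Reads of 24 nt were under 5% of the total in 112 loci and 25% or more in 223.

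Read numbers were modest. A locus had 40 to 5998 pooled reads, with a median of 275, and 862 of the 968 loci had reads in all 8 libraries. In the unstressed library 89 of them had none. At the edge of the rule, 5 loci had exactly 40 reads, and 2 loci with 39 reads met the length conditions. At the upper end, 13 of the 100 most abundant identifiers had the same length pattern. The commonest length was close to the next at some loci: 21 nt led by under 2% of the locus's reads in 64 members, and in 58 other loci it fell short by under 2%.

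The loci were compared with those that peak at neighbouring lengths or are led by 24 nt. Loci peaking at 20 nt numbered 46 and those peaking at 22 nt numbered 57, with a median of 76.5 and 94 reads. Their commonest length held a median of only 18.2% and 18.8% of the reads, against 43.2% in the loci peaking at 21 nt. The 7413 loci led by 24 nt had a median of 63.2% at their commonest length and 5.70% at 21 nt. In those, 21 nt was the next commonest length in 23.7% of loci. These are the values the choice used, so no test is given.

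**Figure D1:**
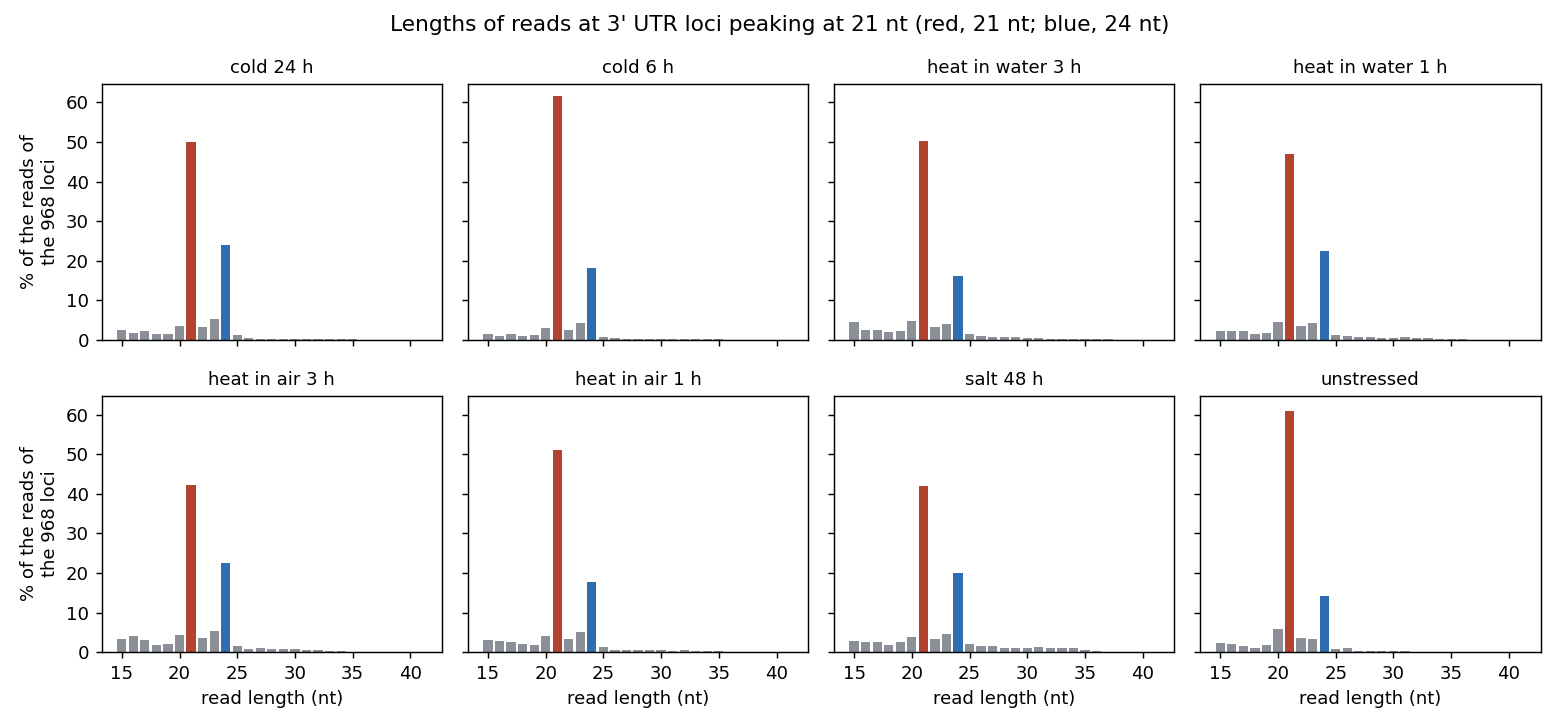
Share of the reads of the 968 loci at each read length, in percent, with 1 panel per library; bars at 21 nt are red and bars at 24 nt are blue. Reads of 21 nt were the tallest bar in all 8 libraries, between 41.9% under salt and 61.6% after 6 h of cold, and 24 nt was the next, at 16.2% to 23.9% under stress and 14.1% without.

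In each library taken alone, 21 nt was the commonest length among the pooled reads of the 968 loci. It made up 49.9% of their reads after 24 h of cold (95% interval 49.5% to 50.2%) and 61.6% after 6 h (61.4% to 61.9%). After water heat it made up 50.3% at 3 h and 47.0% at 1 h, and after air heat 42.3% at 3 h and 50.9% at 1 h. It was 41.9% under salt (41.4% to 42.4%) and 60.9% in the unstressed library (60.3% to 61.6%). The cold library of 6 h and the unstressed library were therefore the richest in 21 nt reads, and salt and 3 h of air heat the poorest. Counting each locus once changed the order: the median locus had 63.6% of 21 nt reads without stress and 33.3% to 52.0% in the stressed libraries, over loci with 20 or more reads in the library. The reads of all other loci outside the 100 most abundant held 6.95% to 8.68% of 21 nt reads in stressed libraries and 13.3% without stress, so the unstressed library was also the richest in 21 nt reads outside the 968 loci.

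Reads of 24 nt at the 968 loci ranged from 16.2% after 3 h of water heat to 23.9% after 24 h of cold in stressed libraries, against 14.1% without stress. Reads of 20 nt made up 3.08% to 4.82% under stress and 5.85% without. Reads of 22 nt stayed between 2.63% and 3.59% in all libraries. Under salt, reads of 25 to 41 nt reached 13.8%, against 3.64% to 7.89% in the other stressed libraries and 3.56% without stress.

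The lengths were then read in a library that had no part in the choice. Loci were chosen on 7 libraries and examined in the eighth, where those with 20 or more reads were counted. The share whose commonest length there was again 21 nt was 57.4% of 754 loci after 24 h of cold (53.8% to 61.0%) and 71.2% of 721 after 6 h (67.7% to 74.4%). It was 70.0% of 617 and 68.3% of 394 in 3 h and 1 h water heat, and 55.6% of 720 and 65.3% of 694 in 3 h and 1 h air heat. Under salt it was 62.0% of 569, and in the unstressed library 85.1% of 249 (80.1% to 89.3%). These intervals take identifiers as independent. Identifiers of 1 gene often had nearly the same counts, so the intervals are too narrow. Among all loci with 40 or more reads in the other libraries, 21 nt was the commonest length in 7.33% to 11.8% in the stressed libraries and in 21.25% in the unstressed library. Where the chosen loci did not peak at 21 nt, 24 nt was the most frequent replacement: it led in 35.4% of the loci read after 24 h of cold, 31.3% after 3 h of air heat, 17.3% to 26.4% in the other stressed libraries and 13.7% without stress.

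**Figure D2:**
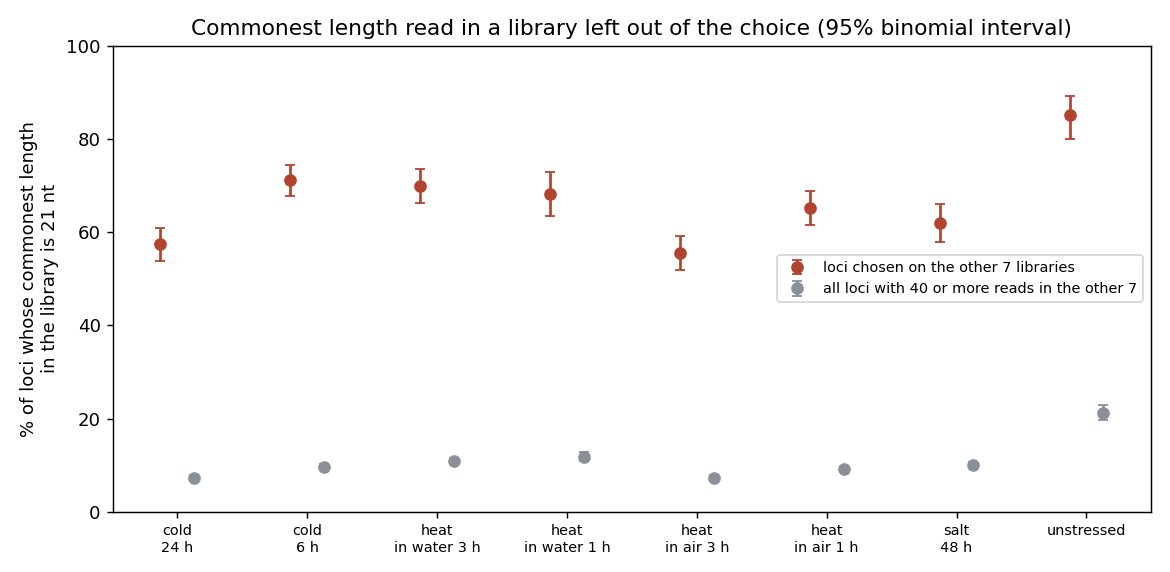
Percent of loci whose commonest length was 21 nt in a library that was not used to choose them, with exact 95% binomial intervals; red points are loci chosen on the other 7 libraries and grey points are all loci with 40 or more reads in the other 7. Red points lie between 55.6% and 85.1% and grey points between 7.33% and 21.25%.

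Leaving out 1 library from the choice gave 932 to 990 loci, of which 821 to 930 were among the 968. The cold library of 6 h mattered most, since 84.8% of the 968 were chosen without it, against 88.4% to 96.1% without any other library.

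Many identifiers had nearly the same counts. Of the 446 pairs of members from the same gene, 170 had identical counts in every library and at every length, and 386 could share 95% or more of their reads. No pair from different genes could share that much, and 57 pairs, from 40 genes, could share 80% or more. Among 21 nt reads alone the overlap between genes was wider. Of the 363 genes with a member of 100 or more 21 nt reads, 76 (20.9%) had a member whose 21 nt counts could be 90% shared with a member of another gene. They formed 30 groups of 2 to 5 genes. Bradi1g29370.1 and Bradi4g21840.1 show such a pair: the first had 387, 272, 339, 110, 464, 194, 233 and 112 reads of 21 nt in 24 h and 6 h cold, 3 h and 1 h water heat, 3 h and 1 h air heat, salt and no stress. The other had 378, 263, 356, 105, 459, 194, 229 and 108 reads in that order. The counts moved together in every library, and 98.3% of them can be the same reads. How reads that map to several places were counted is not given in the sources used here, so whether members of such groups are separate observations was not tested.

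The numbers that follow the species tag in the identifiers, which in this species' gene names stand for the chromosome, were counted. Members had the number 1 in 27.7% of cases, 2 in 25.8%, 3 in 23.9%, 4 in 15.8% and 5 in 6.82%, against 29.8%, 23.2%, 22.97%, 15.1% and 8.81% of all loci with 40 or more reads, which include the members.

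The locus with most reads, Bradi2g04380.1, had 56.1% of 21 nt reads and differed widely between libraries. Its 21 nt reads numbered 818 and 1082 in 24 h and 6 h cold, 48 and 76 in 3 h and 1 h water heat, 80 and 108 in 3 h and 1 h air heat, 1088 under salt and 66 without stress. Its 24 nt reads numbered 272, 354, 92, 90, 214, 100, 338 and 88 in that order. All of these 21 and 24 nt counts were even numbers. Whether reads were counted more than once at this locus was not tested. As deposited counts, 21 nt reads were high in cold and salt and low in heat and without stress. After the TMM scaling described further on, its 21 nt levels were 140.2 and 175 in cold, 12.1 and 41.2 in water heat, 13.4 and 23.1 in air heat, 353 under salt and 66 without stress, the later time first. The unstressed level was then above every heat library and below cold and salt. Reads of 24 nt were more frequent than 21 nt reads without stress and in every heat library except 1 h in air.

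Bradi1g52680.1 was the purest abundant member, with 93.0% of 21 nt reads. They numbered 484 and 791 in 24 h and 6 h cold, 425 and 148 in 3 h and 1 h water heat, 938 and 532 in 3 h and 1 h air heat, 390 under salt and 675 without stress. No library had more than 16 reads of 24 nt there, and 21 nt made up 89.7% to 94.96% of its reads under stress and 96.6% without. Another abundant member, Bradi5g07710.1, had 78.3% of 21 nt reads over all libraries, 67.1% after 24 h of cold, 73.5% to 82.5% in the other stressed libraries and 90.8% without stress.

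Bradi1g19110.1 and Bradi1g19110.2, which have identical counts, had 92.7% of 21 nt reads, nearly all from a pair of libraries. Their 21 nt reads numbered 47 and 1991 in 24 h and 6 h cold, 26 and 27 in 3 h and 1 h water heat, 28 and 789 in 3 h and 1 h air heat, 22 under salt and 7 without stress. Another identifier of this gene, Bradi1g19110.3, had 997 reads of 21 nt after 6 h of cold and 395 after 1 h of air heat. Whether reads were counted more than once at the first 2 identifiers was not tested. At each of them the earlier cold and earlier air-heat libraries stood far above the 6 others. Bradi1g46000.1, with 90.4% of 21 nt reads, was even by contrast, with 150 and 114, 74 and 39, 95 and 67, 169 and 23 reads of 21 nt in the same order.

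Bradi2g25610.1, which has the same or nearly the same counts under the gene's other identifiers, Bradi4g16980.1 and Bradi2g34980.1 were abundant and switched length between libraries. At Bradi2g25610.1, 21 nt reads numbered 83 and 440 in 24 h and 6 h cold, 735 and 207 in 3 h and 1 h water heat, 286 and 316 in 3 h and 1 h air heat, 71 under salt and 92 without stress, while 24 nt reads numbered 220, 106, 61, 159, 105, 60, 134 and 9. At Bradi2g34980.1 they numbered 68, 433, 667, 128, 259, 265, 20 and 56 at 21 nt and 234, 241, 259, 78, 356, 118, 198 and 59 at 24 nt. At all 3 loci 24 nt reads outnumbered 21 nt reads after 24 h of cold and under salt, and 21 nt reads were at their highest after 3 h of water heat. Bradi2g25610.1 and Bradi4g16980.1 can share 92.6% of their 21 nt reads. At Bradi1g76620.1 and its partner Bradi1g76620.2 the lengths were close, with 32.2% of 21 nt and 27.4% of 24 nt reads at the first.

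**Figure D3:**
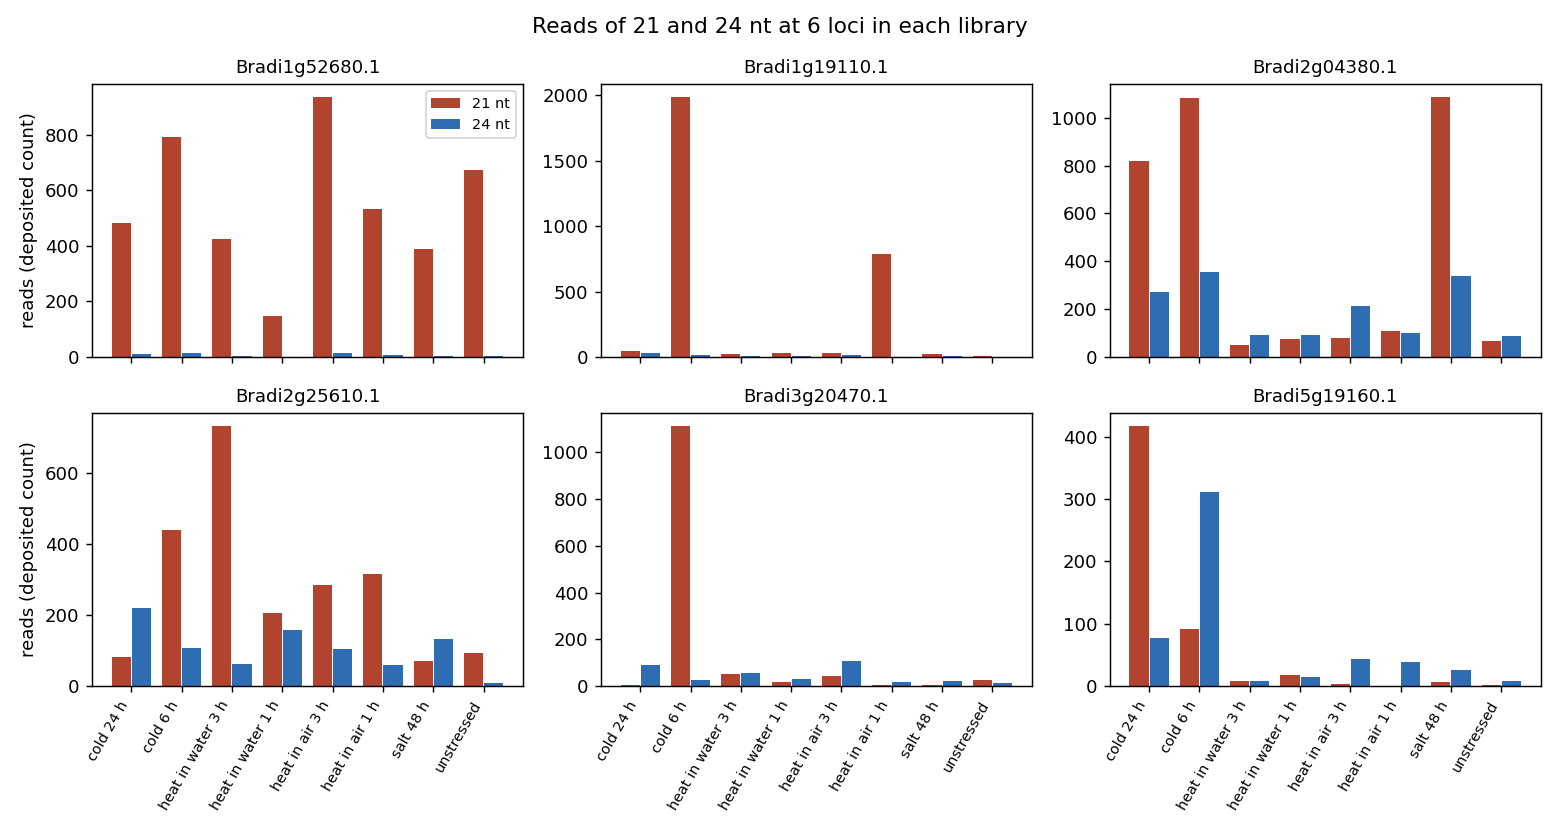
Deposited counts of 21 nt reads (red) and 24 nt reads (blue) in each library at 6 of the loci, each panel with its own axis. Bradi1g52680.1 kept its 24 nt reads at 16 or fewer, Bradi1g19110.1 reached 1991 reads of 21 nt after 6 h of cold, and Bradi3g20470.1 and Bradi5g19160.1 differ between the cold libraries in opposite directions.

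Levels were compared with the unstressed library after scaling with TMM, a trimmed mean of log ratios taken over all identifiers, and a locus was called where the whole 95% interval of the ratio lay beyond 2-fold, at both times for cold and each heat. This scaling divided the counts of the stressed libraries by 1.84 to 6.18, which is 3.46 to 8.51 times the divisor that total reads give. More of the 968 loci were called lower than higher under each stress. In cold 40 were lower (4.13%) and 8 higher (0.826%), against 1.82% and 0.836% of all 18191 loci with 40 or more reads. Under water heat 38 were lower (3.93%) and 7 higher (0.723%), against 1.4% and 1.84% of all. Under air heat 61 were lower (6.3%) and 2 higher (0.207%), against 1.31% and 2.08%, and under salt 84 were lower (8.68%) and 18 higher (1.86%), against 3.02% and 4.51%. In either direction the calls covered 48, 45, 63 and 102 members for cold, water heat, air heat and salt, against 2.66%, 3.24%, 3.39% and 7.53% of all loci. Counted by gene, the lower loci came from 26, 25, 40 and 52 genes and the higher loci from 6, 4, 2 and 9 genes in the same order. With all counts halved, an alternative for reads counted more than once, 2 members in place of 7 were higher under water heat and 1 in place of 18 under salt.

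The choice of loci and the scaling bear on these counts. The unstressed library had helped to choose the loci, so loci were chosen again on the libraries not in each comparison. These loci were chosen on other libraries, so their calls do not rest on the reads that chose them. Of 842 such loci 31 were lower and 8 higher in cold (3.68% and 0.95%), and of 916 loci 29 were lower and 13 higher under water heat (3.17% and 1.42%). Of 926 loci 52 were lower and 4 higher under air heat (5.62% and 0.432%), and of 951 loci 76 were lower and 18 higher under salt (7.99% and 1.89%). Scaled instead by total reads, the direction turned: 506 members were higher and 0 lower in cold, 181 and 0 under water heat, 257 and 2 under air heat, and 579 and 0 under salt. Over all 18191 loci that scaling gave 8887, 4212, 6303 and 11747 higher and 11, 16, 19 and 26 lower, so whether the levels at these loci were below the unstressed level cannot be told from the counts.

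The medians were also set beside those of all loci. With 1 scaled read added to each value, the median log2 ratio to the unstressed library over the 968 loci was -0.07 and 0.00 in 24 h and 6 h cold, -0.03 and -0.10 in 3 h and 1 h water heat, -0.12 and -0.08 in 3 h and 1 h air heat, and -0.11 under salt. Over all loci with 40 or more reads it was 0.43 and 0.40, 0.49 and 0.30, 0.47 and 0.44, and 0.49 in that order. Scaled by total reads, the medians of the 968 loci were 2.34 and 1.85, 1.47 and 1.20, 1.64 and 1.26, and 1.99, against 2.43 and 1.83, 1.71 and 1.34, 1.99 and 1.52, and 2.25 over all. The median of the 968 loci was below that of all loci in all 7 stressed libraries with TMM. With total reads it was below in 6 of 7, the exception being 6 h of cold. With TMM the unstressed library gave the highest level for 238 members (24.6%), against 11.3% of all loci. By total reads it did so for only 3 members (0.31%), against 0.126%. The unstressed library had helped to choose the 968 loci, and these values were not computed on loci chosen without it. Nothing is therefore read from their differences from all loci.

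**Figure D4:**
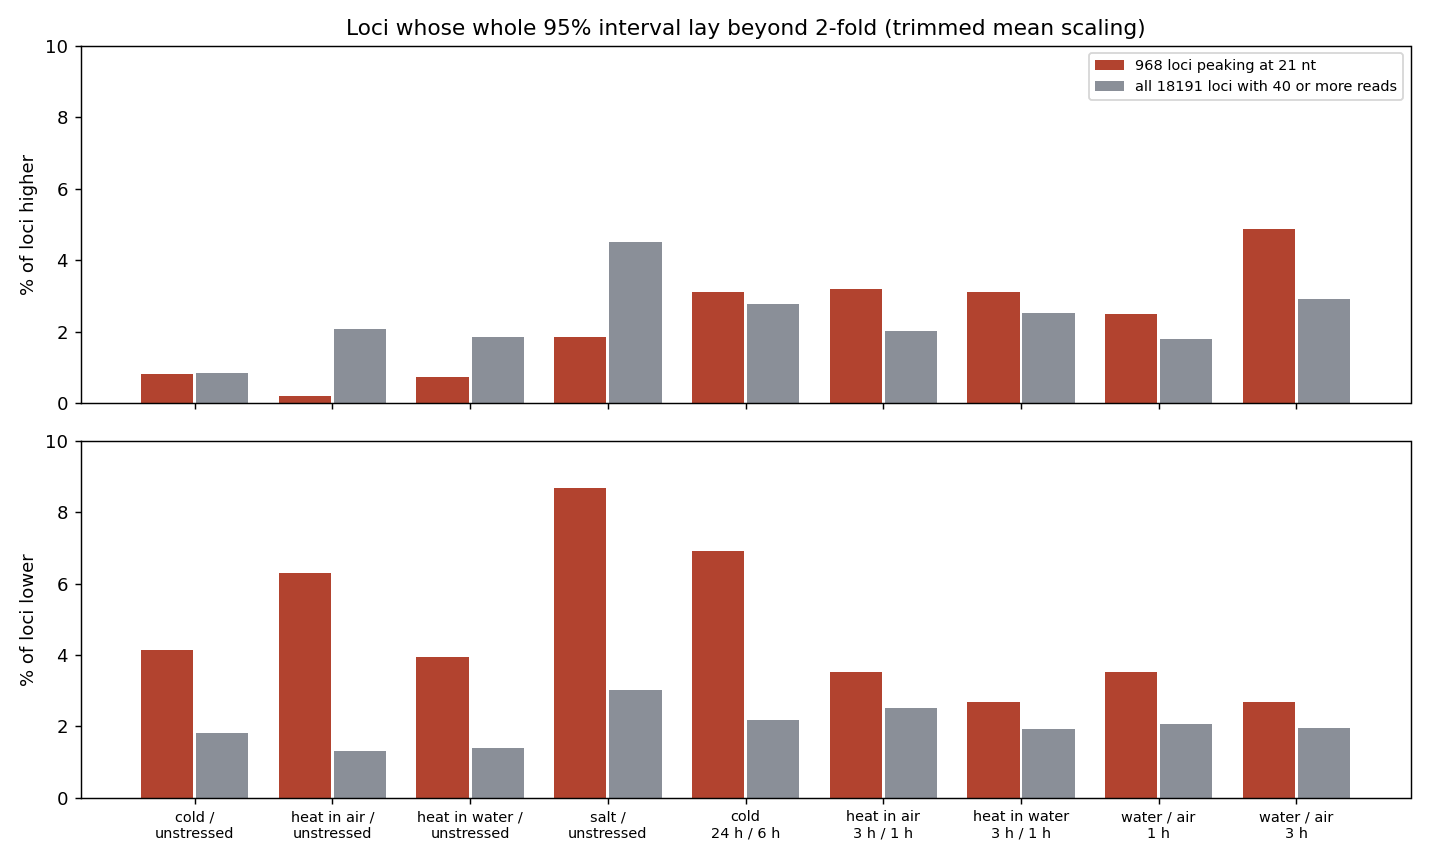
Percent of loci called higher (top) and lower (bottom) in each comparison, for the 968 loci peaking at 21 nt (red) and all 18191 loci with 40 or more reads (grey), with trimmed mean scaling. In the comparisons with the unstressed library the red bars for lower loci, at 3.93% to 8.68%, stand above grey bars of 1.31% to 3.02%; with scaling by total reads 0 to 2 members were lower.

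More members were called lower on 21 nt reads alone than on 24 nt reads alone. Counted on reads of 21 nt alone, 61 members were lower in cold, 62 under water heat, 99 under air heat and 142 under salt, against 1.65%, 1.32%, 1.72% and 3.14% of all loci. On those reads 7, 7, 3 and 25 members were higher, against 0.055%, 0.148%, 0.187% and 0.286% of all. On 24 nt reads alone 4, 7, 7 and 25 were lower, against 0.605%, 0.616%, 0.621% and 1.57%, and 5, 2, 0 and 9 were higher, against 0.797%, 0.236%, 0.434% and 0.726%. Counts of 24 nt reads at these loci were smaller, which leaves wider intervals. The loci were chosen for their 21 nt reads in these same libraries, so nothing is read from the 21 nt counts beside those of all loci. Chosen on the libraries not in each comparison, 52 of 842 loci (6.18%) were lower on 21 nt reads in cold and 5 higher, and 58 of 916 (6.33%) were lower under water heat and 6 higher. Likewise 97 of 926 (10.5%) were lower under air heat and 1 higher, and 131 of 951 (13.8%) under salt, with 21 higher. On 24 nt reads 4, 7, 3 and 23 of those loci were lower and 11, 9, 2 and 10 higher, in the order cold, water heat, air heat and salt.

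The 2 loci called lower with the interval farthest from no change in cold were Bradi2g51020.1 and Bradi2g14330.1. Bradi2g51020.1 had 28 and 18 reads in 24 h and 6 h cold and 65 without stress, or 13.5-fold lower (8.57 to 21.9) and 22.3-fold lower (13.1 to 40.0) after TMM scaling and 1.59-fold and 4.14-fold lower by total reads. Of its reads 7, 5 and 63 were of 21 nt in that order, and no stressed library had more than 7. Without the unstressed library it had 24 reads of 21 nt and 32 of 24 nt and would not have been chosen. At Bradi2g14330.1, cold gave 22 and 25 reads (4 and 6 of 21 nt), and the unstressed library gave 60 (55 of 21 nt).

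Of the 8 loci higher in cold, those with the interval farthest from no change were Bradi4g13950.1 and Bradi3g55240.1. Bradi4g13950.1 had 504 and 388 reads after 24 h and 6 h and 5 without stress, or 17.3-fold (7.35 to 53.4) and 12.5-fold (5.33 to 38.9) higher. Of these reads 406 and 44 were of 21 nt and 40 and 299 of 24 nt, and on 21 nt reads alone the locus was no longer called. It was chosen through the 24 h library, since without it 63 reads were of 21 nt and 360 of 24 nt. Bradi3g55240.1 had 236 and 492 reads and 5 without stress, or 8.09-fold (3.42 to 25.1) and 15.9-fold (6.77 to 49.2) higher. At the second, 188 and 448 of the reads were of 21 nt.

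In both heat treatments the same 2 loci had the interval farthest from no change among the higher ones, and both had 0 reads without stress. Bradi4g35780.1 had 227 and 46 reads in 3 h and 1 h water heat and 369 and 143 in 3 h and 1 h air heat, and only 2, 0 and 6 reads in 24 h and 6 h cold and under salt. Against a floor of 3 counts in the unstressed library this is at least 19.1-fold and 8.32-fold above it in water heat. The air-heat counts were at least 20.6-fold and 10.2-fold above that floor. Of its reads 165 and 6 were of 21 nt in water and 135 and 23 in air, the later time first. On those reads alone it was not called, with a log2 ratio of 0.12 in water and 0.71 in air at the time with the weaker ratio. For Bradi2g19170.1 the water counts were 103 and 48 and the air counts 177 and 105, at least 8.68-fold higher at both times in water, and at least 9.89-fold and 7.48-fold higher for air. Only 8 to 30 of its reads in a heat library were of 21 nt, and it was not called on them alone. It would not have been chosen with either water-heat library, the 6 h cold library or the salt library left out. Its commonest length stayed 21 nt in each case. All 21 and 24 nt counts of Bradi2g19170.1 were even numbers, and whether reads were counted more than once there was not tested.

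Of the loci lower under heat, named by the same rule, Bradi5g13730.1 had 16 and 10 reads after 3 h and 1 h in air and 55 without stress, all 55 of 21 nt, against 0 and 5 reads of 21 nt in air. It was 20.5-fold and 25.7-fold lower after TMM scaling and 3.80-fold and 6.98-fold lower by total reads. Bradi1g25380.1 had 65 and 39 reads in air and 160 without stress, 14.7-fold and 19.2-fold lower by TMM. It was chosen through the unstressed library, since without it 77 reads were of 21 nt and 179 of 24 nt. Under water heat Bradi3g33440.4, with its partner identifiers, had 16 and 4 reads and 58 without stress, 14.3-fold (8.13 to 26.7) and 26.7-fold (9.90 to 101.4) lower, and 3.45-fold and 7.73-fold by total reads. In 24 h and 6 h cold its deposited counts were 156 and 111 reads. After TMM scaling these were levels of 26.74 and 17.95, below the unstressed level of 58. Its cold levels by total reads are not given here.

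Of the 18 loci higher under salt, 2 had the interval farthest from no change. Bradi3g35520.1 had 98 reads, against 3 without stress, a ratio of 10.6 after scaling (3.53 to 52.3), and Bradi2g37340.5 had 39 reads against 0, at least 4.22-fold higher. At the second, only 12 of the 39 reads were of 21 nt, a scaled level of 3.90 against a floor of 3 counts. The lower loci named by that rule were the gene of Bradi3g33440.1 with 7 reads and 57 without stress, 25.1-fold lower (11.4 to 65.2), and Bradi1g25380.1 with 29 and 160 reads, 17.0-fold lower (11.4 to 26.2). By total reads these were 3.87-fold and 2.62-fold lower.

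Comparisons between stressed libraries do not use the unstressed library. Between 24 h and 6 h cold 97 members differed, against 4.95% of all loci: 67 lower (6.92%) and 30 higher (3.1%) at 24 h, against 2.19% and 2.76% of all loci. Chosen on the 6 other libraries, 49 of 901 loci were lower (5.44%) and 24 higher (2.66%). By total reads 31 were lower (3.2%) and 80 higher (8.26%), against 0.77% and 7.26% of all loci. That scaling put the median log2 ratio of all loci at 0.60, against 0.03 with TMM. On 21 nt reads alone 125 members were lower and 58 higher, against 2.03% and 1.41% of all, and on 24 nt reads alone 24 were lower and 28 higher, against 1.56% and 1.48%. The 21 nt reads of both libraries had helped to choose the members. Of the 901 loci chosen without them, 93 were lower (10.3%) and 49 higher (5.44%) on 21 nt reads, and 28 lower and 30 higher on 24 nt reads.

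The lower locus with its interval farthest from no change was Bradi1g19110.1, with 98 reads at 24 h against 2029 at 6 h, or 19.5-fold lower (15.9 to 24.2). On 21 nt reads alone, 47 against 1991, it was 40.0-fold lower. The higher one was Bradi2g41520.1, with 272 reads at 24 h and 13 at 6 h, 22.2-fold higher (12.7 to 42.2), of which 139 at 24 h and 0 at 6 h were of 21 nt. Without the 24 h library it had 62 reads of 21 nt and 65 of 24 nt and would not have been chosen.

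Fewer members differed between the times of each heat than between those of cold, and so did fewer of all loci. The 968 loci had 27024 to 78586 reads in a heat library and 87628 and 122472 in cold, and fewer reads give wider intervals. The directions among members were more even with TMM. In air, 31 members were higher (3.2%) and 34 lower (3.51%) at 3 h than at 1 h, against 2.03% and 2.52% of all, and in water 30 were higher (3.1%) and 26 lower (2.69%), against 2.51% and 1.94%. In either direction that made 65 members in air and 56 in water, against 4.55% and 4.45% of all. By total reads 60 were higher (6.2%) and 13 lower (1.34%) in air, against 6.22% and 1.15% of all. In water that scaling gave 57 higher (5.89%) and 19 lower (1.96%), against 3.91% and 1.37% of all. On 21 nt reads alone 48 were higher and 79 lower in air, against 0.891% and 1.74% of all, and 62 were higher and 52 lower in water, against 0.973% and 1.2%. On 24 nt reads alone 15 were higher and 17 lower in air, against 1.2% and 1.68%, and 6 were higher and 28 lower in water, against 0.726% and 1.91%. Bradi4g03220.1 had 110 reads at 3 h in air and 4 at 1 h, a ratio of 21.6 (8.19 to 80.6), and Bradi1g28650.1 had 14 and 322, 29.3-fold lower (17.2 to 54.2). At both loci all 21 and 24 nt counts were even numbers. After 1 h in air Bradi1g28650.1 had 258 reads of 21 nt, and Bradi1g28650.2, of the same gene, had 129. Their intervals would be too narrow if reads were counted more than once, which was not tested. In water Bradi3g40630.1 had 185 reads at 3 h and 11 at 1 h, a ratio of 7.84 (4.28 to 16.0), and Bradi3g35520.1 had 19 and 99, 11.2-fold lower. Both higher loci were chosen through the library in which they were high: without it Bradi4g03220.1 had 10 reads of 21 nt and 16 of 24 nt, and Bradi3g40630.1 had 27 and 91. Chosen on the libraries not compared, 35 of 978 loci were higher and 68 lower on 21 nt reads in air, and 55 and 51 of 958 in water.

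Between heating in water and in air, more members differed at 3 h than at 1 h, and so did more of all loci. The rise is therefore not particular to the members. Members had 61310 and 78586 reads in water and in air at 3 h, and 27024 and 67658 at 1 h. Fewer reads give wider intervals, and whether this accounts for the difference between the times was not tested. At 3 h 47 members had higher levels (4.86%) and 26 lower (2.69%) in water than in air, against 2.91% and 1.95% of all, and at the 1 h time point 24 were up (2.48%) and 34 down (3.51%), against 1.8% and 2.07%. In either direction these were 73 and 58 members, against 4.87% and 3.88% of all. By total reads the 3 h split was 32 higher (3.31%) against 49 lower (5.06%), where all loci gave 1.52% and 4.3%. The 1 h split was 18 (1.86%) against 36 (3.72%), where all loci gave 1.45% and 2.39%. The direction at 3 h therefore depended on the scale. On 21 nt reads alone the 3 h pair had 92 higher and 41 lower, against 2.14% and 1.03% of all, and the 1 h pair 48 and 51, against 1.25% and 0.825%. On 24 nt reads alone the 3 h pair had 14 higher and 15 lower, against 1.2% and 1.7%, and the 1 h pair 23 and 7, against 1.69% and 0.929%. Chosen on the other libraries, the 3 h pair gave 48 higher and 19 lower of 911 loci, or 76 and 32 on 21 nt reads. The 1 h pair gave 47 and 44 of 961 on 21 nt reads. At 3 h Bradi4g16010.1 had 51 water-heat reads against 3 air-heat reads, a ratio of 25.6 (8.29 to 128), and Bradi4g19570.1 had 48 and 506, 6.99-fold lower (5.19 to 9.61), with 1 and 434 reads of 21 nt. Without the 3 h air-heat library the second had 17 reads of 21 nt and 158 of 24 nt and would not have been chosen. At 1 h Bradi3g35520.1 had 99 water-heat reads against 27 air-heat reads, a ratio of 9.31, and Bradi2g34260.1 had 4 and 162, 15.9-fold lower.

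The share of 21 nt among the reads of 21 and 24 nt needs no scaling between libraries. It was compared where a locus had 20 or more such reads in both libraries, and counted as different where the 95% intervals did not meet. Members were chosen for their 21 nt reads in these libraries and have high shares, while the median share of all loci compared was 8.79% to 12.3% in stressed libraries and 16.7% to 18.5% without stress. The percents of all loci are therefore given as background and nothing is read from the difference. At 24 h of cold the share was lower than at 6 h in 122 of 508 members (24.0%) and higher in 47 (9.25%), against 8.01% and 5.63% of all loci outside the 100 most abundant. The median share was 67.7% at 24 h and 76.2% at 6 h. In air the share was lower at 3 h than at 1 h in 83 of 396 members (20.96%) and higher in 32 (8.08%), against 7.97% and 4.87% of all, with medians of 64.4% and 73.0%. Among loci chosen on the libraries not compared, the share was lower in 21.29% of 526 and higher in 9.13% between the times of cold, and lower in 18.4% of 419 and higher in 7.88% between the times in air.

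Water heat ran the other way. There 44 of 219 members (20.1%) had a higher share at 3 h than at 1 h and 9 (4.11%) a lower one, against 8.54% and 4.91% of all, with medians of 75.9% and 69.0%. At 3 h the share was higher in water than in air in 87 of 366 members (23.8%) and lower in 22 (6.01%), against 11.4% and 4.2% of all, with medians of 77.1% and 65.1%. At 1 h it was lower in water in 43 of 234 members (18.4%) and higher in 23 (9.83%), against 8.98% and 6.07%, with medians of 69.4% and 73.2%. Among loci chosen on the libraries not compared, the share was higher in 17.8% of 225 and lower in 6.67% between the times in water. Between water and air it was higher in 21.2% of 363 and lower in 6.34% at 3 h, and lower in 16.9% of 236 and higher in 10.2% at 1 h. The comparisons that involve the same library are not independent of each other. In each of these comparisons between stressed libraries all loci went the same way as members, so the directions are not particular to the members.

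**Figure D5:**
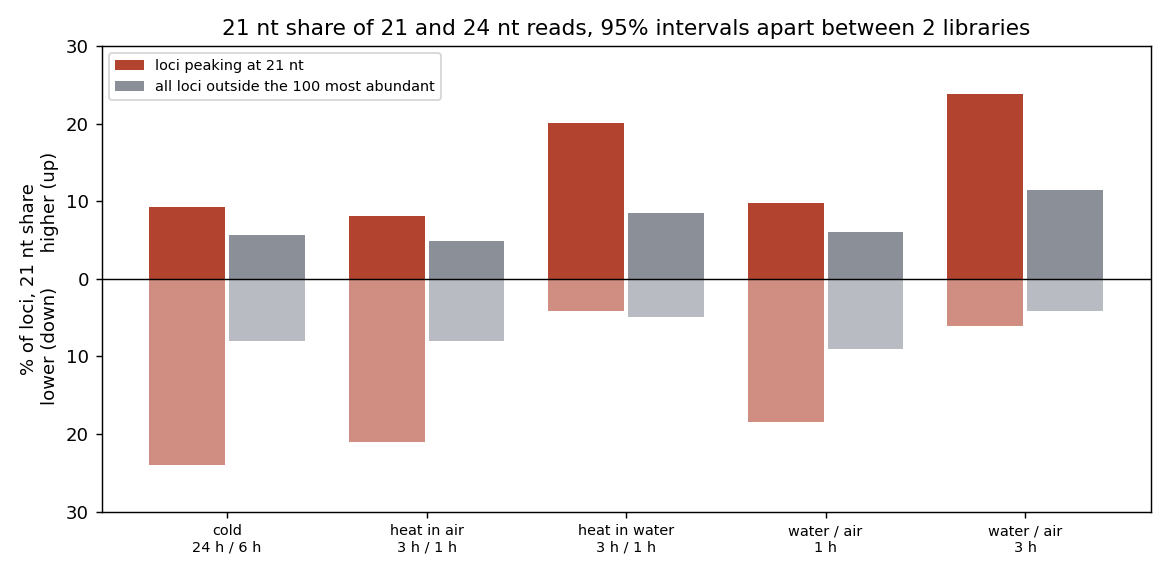
Percent of loci whose 21 nt share of 21 and 24 nt reads was higher (above the line) or lower (below it) in the first named library of each comparison between stressed libraries, with 95% intervals that do not meet; red bars are loci peaking at 21 nt and grey bars all loci outside the 100 most abundant. The share was more often lower at the later time in cold and in air, at 24.0% and 20.96% of members, and more often higher at the later time in water, at 20.1%. All loci went the same way, at 8.01% and 7.97% lower in cold and in air and 8.54% higher in water.

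Against the unstressed library the share was more often lower in each stressed library, among all loci as well as among members. In 24 h and 6 h cold it was lower in 35.3% of 184 and 19.7% of 183 members, against 25.9% and 23.1% of all. Higher shares made up 3.26% and 8.74%, against 3.99% and 4.82%. In 3 h and 1 h water heat it was lower in 19.5% of 164 and 28.0% of 132, against 16.5% and 15.6%. Higher shares made up 7.32% and 5.30%, against 5.75% and 3.8%. In 3 h and 1 h air heat it was lower in 46.8% and 20.8% of 173 each, against 27.3% and 17.6%. Higher shares made up 4.62% and 8.09%, against 3.32% and 5.59%. Under salt it was lower in 33.3% of 141, against 19.1%, and higher in 1.42%, against 2.68%. The unstressed library had helped to choose the members. Among loci chosen without the 2 libraries compared, the share was lower in 37.2% of 188 and 21.29% of 155 in 24 h and 6 h cold, 19.3% of 150 and 26.6% of 128 in 3 h and 1 h water heat, 46.7% of 169 and 19.8% of 162 in 3 h and 1 h air heat, and 34.8% of 141 under salt. It was higher in 3.19% and 5.81%, 7.33% and 5.47%, 2.96% and 8.64%, and 0.709% in that order. In each of the 7 pairs lower shares outnumbered higher ones among these loci and among all loci, so this is not particular to them.

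At some loci the reads of 21 and of 24 nt moved in opposite directions, each with its whole interval beyond 2-fold. Between 24 h and 6 h cold this held for 20 members from 14 genes (2.07%), against 74 of all 18191 loci (0.407%). Of the 20, 14 would not have been chosen without the cold library in which their 21 nt reads were high. Of the 901 loci chosen on the 6 libraries without cold, 16 moved in opposite directions (1.78%), 8 of them among the 20. In 12 of the 20 members, from 9 genes, 21 nt reads were lower and 24 nt reads higher at 24 h, and in 8, from 5 genes, the reverse. Between the times in air it held for 8 members (0.826%, against 0.253% of all), in each of which 21 nt reads were the higher ones at 3 h. Between the times in water it held for 4 members (0.413%, against 0.203%), and between water and air for 5 at 3 h (0.517%, against 0.247%) and 1 at 1 h (0.103%, against 0.154%). Against the unstressed library it held for 3 members of 1 gene under salt, against 0.104% of all, and for none in cold, water heat or air heat, against 0.022%, 0.0165% and 0.0165%. Chosen on the libraries not compared, the counts were 8 of 978 between the times in air, 3 of 958 between the times in water, 6 of 911 and 1 of 961 between water and air at 3 h and 1 h, 3 of 951 under salt, 2 of 916 under water heat and 0 in cold and air heat.

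The examples given here were chosen after their values were seen. Bradi3g20470.1 had 4 reads of 21 nt at 24 h of cold, against 1114 at 6 h, while its 24 nt reads numbered 91 at 24 h and 25 at 6 h. Its 21 nt share of 21 and 24 nt reads was 4.21% at 24 h (1.16% to 10.4%) and 97.8% at 6 h (96.8% to 98.6%). In the 6 libraries without cold it had 3 to 50 reads of 21 nt. It was chosen through the 6 h cold library, since without it 144 reads were of 21 nt and 332 of 24 nt.

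Bradi2g47650.1 showed the reverse, with 592 reads of 21 nt at 24 h against 26 at 6 h and 19 reads of 24 nt against 145, a share of 96.9% at 24 h and 15.2% at 6 h. Bradi5g19160.1 had 418 reads of 21 nt at 24 h against 91 at 6 h and 77 of 24 nt against 312, a share of 84.4% and 22.6%. Bradi4g13950.1 had 406 against 44 reads of 21 nt and 40 against 299 of 24 nt, a share of 91.0% (88.0% to 93.5%) and 12.8% (9.48% to 16.8%). The loci Bradi4g13950.1 and Bradi5g19160.1 belong to different genes but can share 93% of the reads of the first, so they may not be separate observations. Neither would have been chosen without the 24 h cold library, since Bradi5g19160.1 then had 129 reads of 21 nt and 452 of 24 nt. Both had 0 to 18 reads of 21 nt in each library without cold. At Bradi2g47650.1, reads of 21 nt were also high at the later time of both heats, with 155 after 3 h and 2 after 1 h in water and 278 after 3 h and 1 after 1 h in air.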

How the data were processed

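Small RNA reads at 3' UTRs were analysed in 8 leaf libraries, 1 per condition. The authors deposited raw counts per identifier and read length, per the file headers; their header is shifted against the data, so length was taken from the column with values of 15 to 41. Per the submitters' processing notes the tools were Bowtie 0.12.7, bedtools 2.10.0 and CASAVA, with no role or order. Genome build, annotation, strand and multi-mapping rules were not given in the sources used here. The totals cover 3' UTR reads only, which is not the depth of sequencing.

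Loci were chosen on pooled reads. Libraries were scaled by TMM over all identifiers, with trims of 30% on the log ratios and 5% on the mean levels, in Python (3.11.15; scipy 1.17.1, pandas 2.3.3, numpy 2.4.6), checked against edgeR 4.0.16. Ratios have exact (Clopper-Pearson) 95% intervals of the conditional binomial share; shares have exact intervals of the same kind. A fold against 0 reads uses a floor of 3 counts in that library. Intervals of ratios and of shares of reads describe counting error alone. They may be too narrow, since PCR copies of a molecule are not independent. Intervals of shares of loci take identifiers as independent, which those of 1 gene often are not. The procedure was tested on simulated data, and figures were drawn with matplotlib 3.10.9.

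The rule for named loci took the 10 members with most reads, the 2 per direction with the interval farthest from no change for each stress, 1 per direction for each comparison of stressed libraries, and the 3 purest of those with 200 or more reads. The members, lists and tests were chosen with earlier results of these data known. A comparison of cold with heat libraries was also computed after the data were seen and is not reported. Counts of 2 outnumbered counts of 1 among the cells (locus and length) of the 968 loci in each stressed library, by 1.09 to 1.84 times, but not in the unstressed library (0.733 times), so counting of reads more than once was tried as an alternative in which all counts were halved. Alternatives also covered scaling, minimum reads, read length, choice of loci and 1 identifier per gene. The halved counts, the 24 nt reads alone, TMM over identifiers with 40 or more reads, the 21 nt share of 21 and 24 nt reads, and the counts by read length on loci chosen without the libraries compared were added after the data were seen.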

Additional observations from a re-analysis of the deposited data

Results flagged for a closer look

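At Bradi2g04380.1, the member with most reads, TMM-scaled levels lay on both sides of the unstressed library. It had 1652 reads under salt and 222 without stress, 2.42-fold higher after TMM scaling, while in air heat of 3 h and 1 h it had 416 and 309 reads, or 0.314 and 0.297 times the unstressed level (0.266 to 0.371 and 0.249 to 0.355). By total reads the direction in air turned, to 1.69 and 1.10 times the unstressed level, and salt was 15.7-fold higher. The difference between salt and air heat was not tested. The 21 and 24 nt counts of this locus were all even numbers, and its intervals would be too narrow if reads were counted more than once. By read length, salt had 1088 reads of 21 nt and 338 of 24 nt, air heat of 3 h and 1 h had 80 and 108 of 21 nt and 214 and 100 of 24 nt, and the unstressed library 66 and 88.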

How the results depend on the processing

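No paired analysis was possible because there was 1 library per condition. With 1 library per condition there is no replicate check, counting error is the only error covered, and loci with few reads (median 275 over 8 libraries) show only large differences. Results are given as members higher and lower in cold, water heat, air heat and salt. By total reads they were 506 and 0, 181 and 0, 257 and 2, and 579 and 0. On 21 nt reads 61, 62, 99 and 142 were lower, and 183, 127, 114, 99 and 133 members differed between 24 h and 6 h of cold, 3 h and 1 h in air, 3 h and 1 h in water, water and air at 1 h, and water and air at 3 h. On 24 nt reads they were 5 and 4, 2 and 7, 0 and 7, and 9 and 25, with 52, 32, 34, 30 and 29 that differed. On these reads the log2 ratios turned for Bradi1g19110.1 and Bradi1g19110.2 (0.67, 24 h over 6 h of cold), Bradi2g14330.1 (1.07, cold) and Bradi3g35520.1 (-1.12, water over air at 1 h). For Bradi2g19170.1 they were -0.16 in air and -0.47 in water only because the floor of 3 counts stood in for 0 unstressed reads. It had 16 and 4 reads of 24 nt in 3 h and 1 h air heat and 4 at each time in water, so no fall was seen. With 1 identifier per gene the loci numbered 674 in place of 968, so these counts have a smaller base. Then 26, 25, 40 and 52 were lower, 4 were higher under water heat and 9 under salt. Between the times in water 34 differed, and 46 between water and air at 3 h. Chosen on the libraries not compared, 13 were higher under water heat and 4 in air, and 21 and 24 nt reads moved in opposite directions at 2 loci under water heat. With 200 or more reads, 596 loci were chosen in place of 968, also a smaller base, and 10 were higher under salt. With all counts halved, 2 were higher under water heat and 1 under salt, and 36 differed between the times in water and 25 between water and air at 1 h.

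Halving also lowered the percent of members whose 21 nt share differed. Lower shares were then 20.1% and 12.6% (24 h and 6 h of cold over unstressed, with 4.92% higher at 6 h), 9.76% and 12.1% (3 h and 1 h in water), 26.6% and 11.6% (3 h and 1 h in air), 16.3% (salt), 17.1% (24 h over 6 h of cold), 13.1% (3 h over 1 h in air) and 10.3% (water over air at 1 h). Higher shares were 13.7% (3 h over 1 h in water) and 13.1% (water over air at 3 h). The 21 nt share as a median over members was 42.8% and 52.0% in cold at 24 h and 6 h, 43.3% and 45.5% in water at 3 h and 1 h, 33.3% and 39.5% in air at 3 h and 1 h, 34.7% under salt and 63.6% without stress. Without the 10 members with most reads it was 50.4% at 24 h of cold, 47.9% at 3 h in water, 41.9% at 3 h in air, 40.9% under salt and 60.1% unstressed. The share of loci peaking at 21 nt in a library left out, with 10 or more reads, was 61.8% at 3 h and 61.8% at 1 h in water, 60.4% at 1 h in air and 56.6% under salt. With 50 or more reads it was 75.6% at 6 h of cold, 77.1% at 3 h in water, 60.8% and 72.9% at 3 h and 1 h in air, and 66.5% under salt. Leaving out each library in turn gave 932 to 990 members. Choosing by the mean share over libraries gave 1024, with 780 shared. The cause of these changes was not tested.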
